A study of Mus musculus with 18 samples.

Results

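Integrins are the cell surface receptors that hold cells to the matrix around them, and laminins are the trimeric glycoproteins of the basement membrane that several of them bind. Described here are 36 mouse genes of these families, chosen by symbol alone: 18 integrin alpha chains (Itga genes), 8 integrin beta chains (Itgb1 to Itgb8) and 10 laminin chains (Lama, Lamb and Lamc genes), out of 23951 gene symbols. Their levels were compared across poly(A) RNA libraries of cells sorted from fresh mouse pancreas and pancreatic tumors, in 5 groups with 18 libraries in all. NPF (3 libraries) were normal pancreatic fibroblasts from mice carrying Elas-tTA/tetO-Cre and the Rosa26+/EYFP reporter, without floxed Trp53. WT_CAF (5 libraries) and WT_tumor (4 libraries) were cancer-associated fibroblasts and tumor cells from mice that carried, among other alleles, the same Cre system and reporter with Trp53lox/lox. KO_CAF (3 libraries) and KO_tumor (3 libraries) were the same kinds of cells from mice that were also Saa3-/-, so the fibroblasts and the tumor cells of those mice both lacked Saa3, a serum amyloid A gene. In this system the elastase promoter, which is active in acinar cells, drives the transactivator that switches on Cre. Neither the ages of the mice nor the markers of the sort are given in the labels. Replicate numbers follow the order of deposition and pair no libraries.

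An integrin is a pair of 1 alpha and 1 beta chain, and the pair decides the ligand: the alpha chains of the collagen receptors, the laminin receptors and the fibronectin receptors all join the beta chain made by Itgb1, while the chain made by Itga6 also joins that of Itgb4 in the hemidesmosomes of epithelia. A laminin is a trimer of 1 alpha, 1 beta and 1 gamma chain, and the chains made by Lama3 and Lamb3 belong to the epithelial laminin that hemidesmosomes hold. The pancreatic duct rests on a basement membrane, and in pancreatic tumors the cancer cells lie in a stroma rich in fibroblasts and collagen.

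Levels are given in FPKM, fragments per transcript length and mapped fragments, so that genes of different lengths can be set side by side. A gene was tested where at least 3 libraries reached 1 FPKM, which left 13369 genes and 30 of the 36 members. The other 6, Itga4, Itga10, Itgad, Itgae, Itgal and Itgax, were too low to test, and the highest value of any of them was 1.60 FPKM, for Itga10 in KO_CAF 1. Differences are log2 differences of FPKM plus 1 from limma, fitted to all libraries with a term for the length of the library index that the labels give (none, 6 or 16 bases), and a gene was called at a Benjamini-Hochberg adjusted p under 0.05 over all genes tested. Adding 1 to the values makes the differences of low genes smaller than their ratio in FPKM. Of the tested members, 23 reached 1 FPKM in at least 1 library of each cell type. Another 6 reached it only in fibroblasts (Itga8, Itga11, Itgb8, Lama1, Lama2 and Lamc3) and 1 only in tumor cells (Itgb6). Of the 23, Lama3 reached it in 1 fibroblast library (WT_CAF 1) and Itga9 in 1 tumor library (WT_tumor 3). Itgb7 reached it in 1 tumor library, and Itga2b and Itgam in 2 tumor libraries each. Such genes passed the minimum of 3 libraries through 1 cell type. A call in tumor cells against fibroblasts could hardly come out toward the other cell type. Itga8 passed only through NPF, so for Itga8 this concerns WT_CAF against NPF. Because these are bulk libraries, fewer cells of a type and less RNA per cell cannot be told apart.

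The labels were checked with marker genes before the members were read. Saa3 ran from 7.24 to 4278 FPKM in WT_CAF and from 0.434 to 1.85 FPKM in KO_CAF, and from 2.75 to 106 FPKM in WT_tumor and 0 to 0.346 FPKM in KO_tumor. The library labelled WT_CAF 1 stood apart: the summed level of 9 fibroblast markers was 892 FPKM there, that of 8 epithelial markers 617 FPKM, and its Pdgfra was 9.80 FPKM against 81.0 to 121 FPKM in the other 4 WT_CAF libraries. In tumor libraries the epithelial sum ran from 2878 to 8381 FPKM and the fibroblast sum from 12.9 to 679 FPKM, highest in WT_tumor 3. WT_tumor 4 had 2.60 FPKM of the epithelial gene Epcam against 129 to 549 FPKM in the other WT_tumor libraries. Krt19, another of the 8 epithelial markers, remained high there, at 438 FPKM against 485 to 1040 FPKM in those libraries. Results that rest on WT_CAF 1 or WT_tumor 4 are given with and without them.

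**Figure D1:**
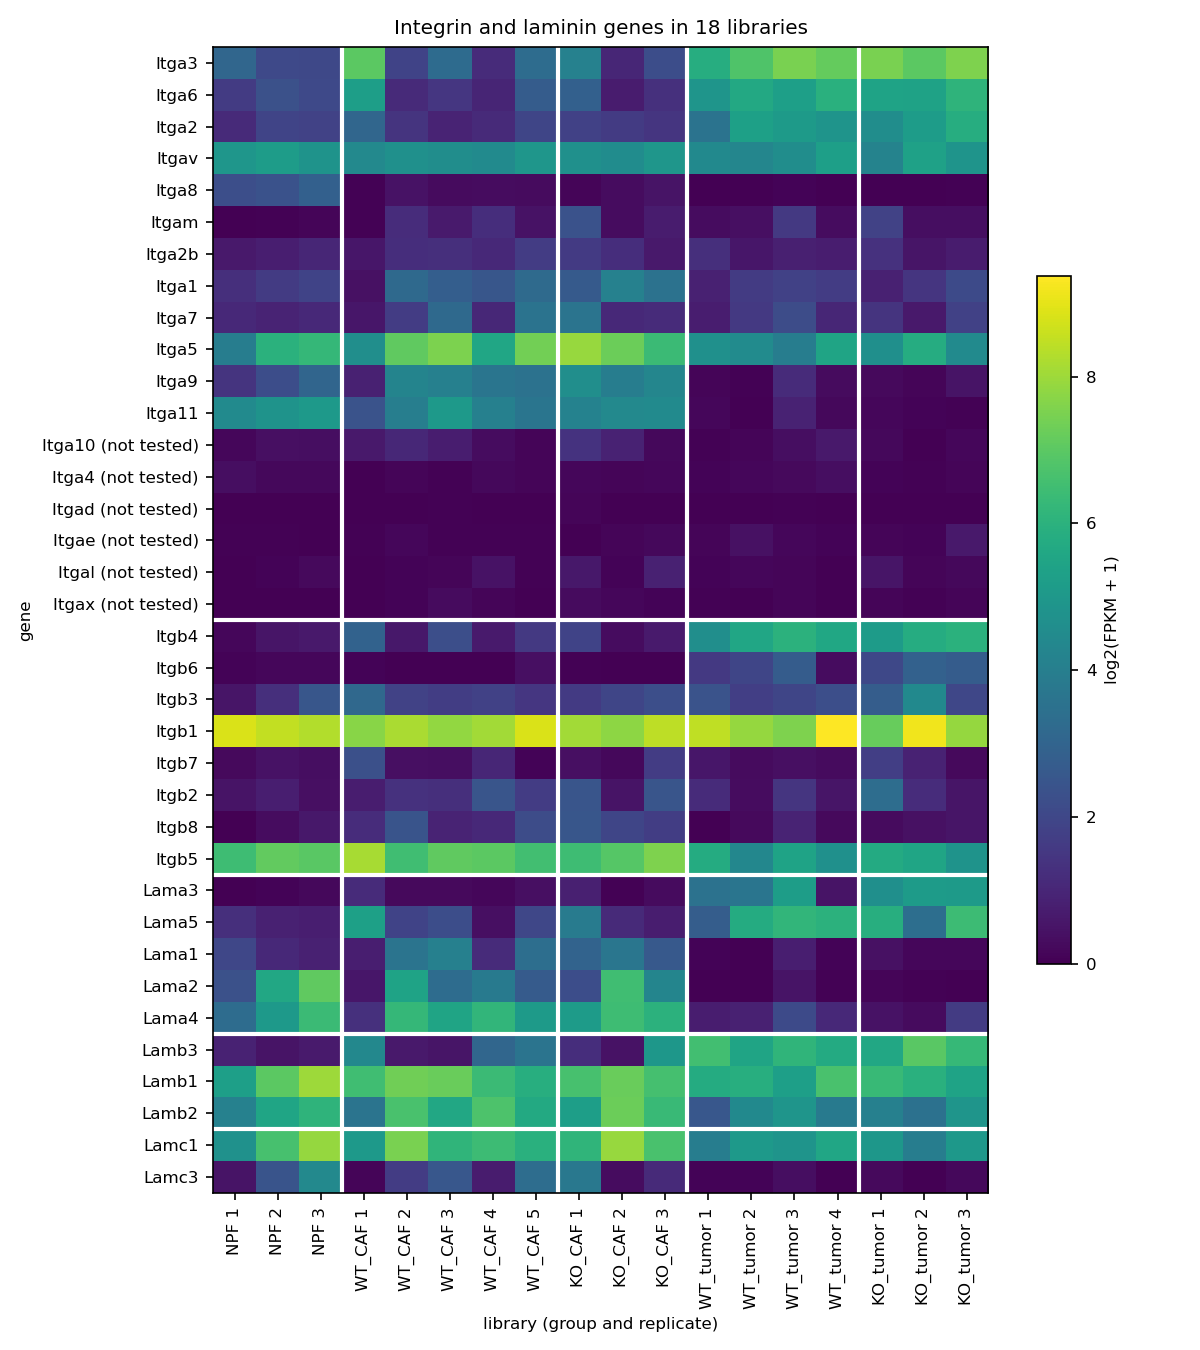
Levels of the 36 integrin and laminin genes (rows) in the 18 libraries (columns, by group), as log2(FPKM + 1), dark for low and bright for high. Lamb3 and Itgb4 are brighter in each of the 7 tumor libraries than in any fibroblast library, Itga3 and Itga6 are bright in the tumor libraries and in WT_CAF 1, Lama4 is bright in the fibroblast libraries other than WT_CAF 1, Itga11 is above every tumor library in all fibroblast libraries, and Itgb1 is bright in all 18.

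Tumor cells and tumor fibroblasts differed in the chains they used, with an epithelial set of laminin and integrin chains higher in tumor cells and another set higher in fibroblasts. In WT_tumor against WT_CAF, 8 members were higher (Lamb3, Lama3, Lama5, Itga2, Itga3, Itga6, Itgb4 and Itgb6) and 7 were lower (Lama1, Lama4, Lamb2, Itga5, Itga9, Itga11 and Itgb5), 15 of 30 in all, against 21.5% of all genes tested (9.05% higher and 12.5% lower). In KO_tumor against KO_CAF, 8 were higher and 10 lower, 18 of 30 in all, against 28.4% of all genes tested (13.0% higher and 15.4% lower). Both counts include genes that passed the minimum level through the cell type where they are high: Itga11, Lama1, Itgb6, Lama3 and Itga9. The knockout count also includes Itgb8 and Lama2, which passed it through fibroblasts. The 8 higher genes were the same in both comparisons, and 14 genes were called in both, in the same direction, which is 93.3% of the calls in Saa3-intact cells and 77.8% of those in knockout cells. Over all genes those shares were 80.6% and 61.1%. Lamb2 was called only in Saa3-intact cells and Itga1, Itgb8, Lama2 and Lamc1 only in knockout cells, and no gene differed between the 2 comparisons by the test of that difference given further on. Counted by overlap, 7 of 30 members did not overlap between WT_tumor and WT_CAF, against 12.7% of all genes tested, and 21 of 30 did not between KO_tumor and KO_CAF, against 42.0%. The median difference of the tested members was -0.65 against 0.07 over all genes in Saa3-intact cells, and -0.28 against 0.05 in knockout cells. The 2 comparisons share no library, although they share the spread and the index terms of a single fit.

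The size of the Saa3-intact difference rests on the WT_CAF libraries that share an index length with tumor libraries (3, 4 and 5). WT_CAF 3 is the only one of them with a 6-base index, and without it 6 of the 15 calls remained (Itga2, Itga9, Itga11, Itgb4, Lama4 and Lamb3), 3 of them higher and 3 lower. Without WT_CAF 4, 11 of the 15 remained, 5 of them higher. A fit of the 2 groups alone kept 5, the same as without WT_CAF 3 other than Lama4, while the knockout libraries fitted alone kept all 18 calls and added Lamb2. With quantile normalization the Saa3-intact calls were 8 higher and 4 lower. Within the libraries with a 6-base index (3 WT_tumor and 1 WT_CAF), and within those with a 16-base index (1 WT_tumor and 2 WT_CAF), 15 of the 15 called genes had the same direction as in the fit, and so did 18 of the 18 in knockout cells (2 against 2 and 1 against 1). The fit is built from these same within-index differences and the genes were chosen by its calls, so the equal direction is not a separate check. WT_CAF 1 has no index and so does not enter the size of this difference. Leaving it out of the fit with the index term changes only the spread. Without WT_tumor 4 alone, 14 of the 15 calls remained and Lamb2 was lost. Without WT_CAF 1 and WT_tumor 4 together, all 15 calls remained and Itga1 was added.

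**Figure D2:**
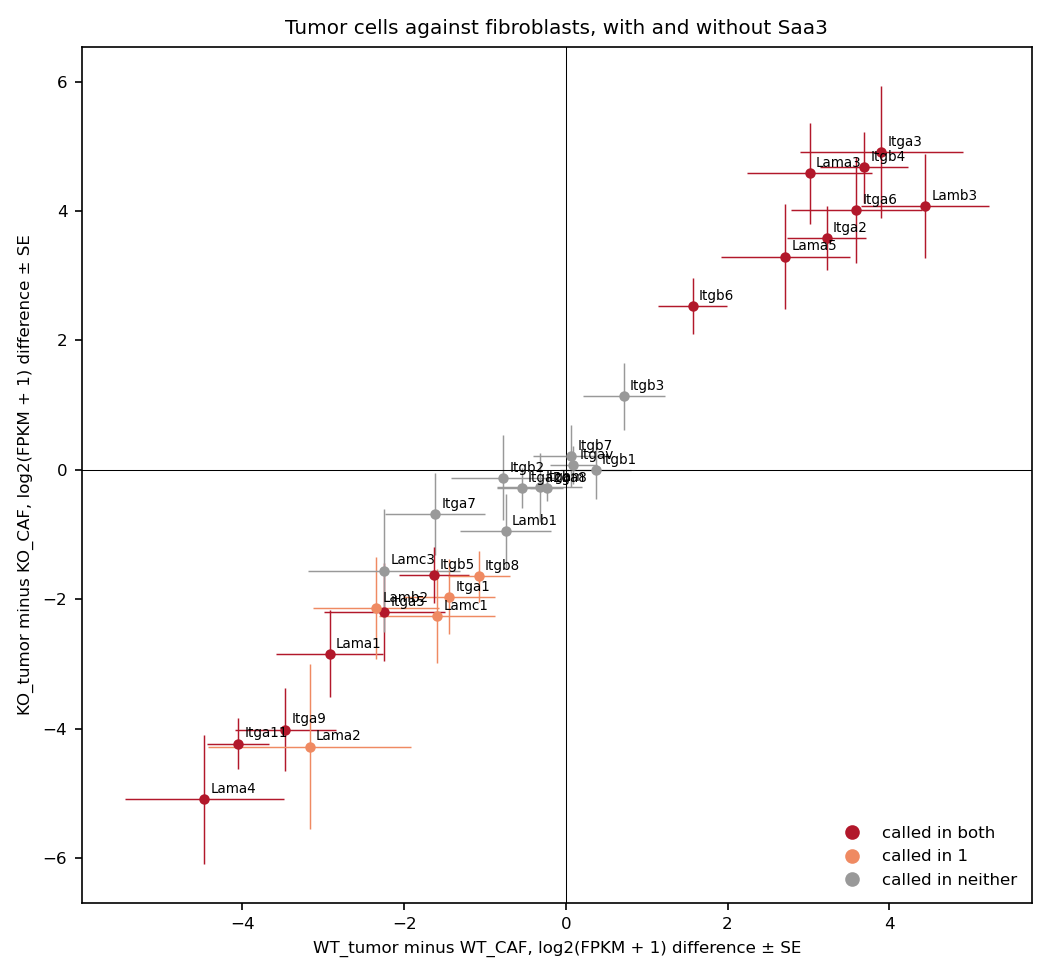
Log2 difference between tumor cells and fibroblasts for the 30 tested members, with the Saa3-intact comparison (WT_tumor minus WT_CAF) on the horizontal axis, the knockout comparison (KO_tumor minus KO_CAF) on the vertical axis, and bars of 1 standard error. The Lamb3 point lies at 4.44 and 4.08, the Itga11 point at -4.05 and -4.23, and Itgb1 near 0 on both axes.

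Since these genes moved together by cell type, the sequence just upstream of their start sites is shown for the 3 largest differences in each direction called in WT_tumor against WT_CAF that had an entry in the RefSeq promoter table: Lamb3, Itga3 and Itga2, higher in tumor cells, and Itga11, Itga9 and Lamb2, lower. Lamb2 was not called in KO_tumor against KO_CAF. Each run is the 250 bases before the start of a transcript (the most upstream one where a gene has several), 5′ to 3′ on the strand of the gene, on GRCm38.p6, which is another build than the mm9 of the authors' processing. Capitals mark matches, on either strand, to CACCTG (the E-box bound by ZEB and SNAI repressors, which reads CAGGTG on the other strand) or GGGCGG (the box bound by SP and KLF factors).
Lamb3, chr1:193301744-193301993, plus strand: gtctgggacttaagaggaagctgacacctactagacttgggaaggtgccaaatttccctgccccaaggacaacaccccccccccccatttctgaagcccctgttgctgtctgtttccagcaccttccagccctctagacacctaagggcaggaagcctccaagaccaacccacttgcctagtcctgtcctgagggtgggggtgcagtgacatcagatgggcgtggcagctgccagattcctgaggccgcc
Itga3, chr11:95076715-95076964, minus strand: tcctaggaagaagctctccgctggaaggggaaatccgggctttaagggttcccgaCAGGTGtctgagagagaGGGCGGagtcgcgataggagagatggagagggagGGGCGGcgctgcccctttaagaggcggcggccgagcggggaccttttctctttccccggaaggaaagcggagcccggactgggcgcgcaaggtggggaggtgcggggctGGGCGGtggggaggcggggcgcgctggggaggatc
Itga2, chr13:114932101-114932350, minus strand: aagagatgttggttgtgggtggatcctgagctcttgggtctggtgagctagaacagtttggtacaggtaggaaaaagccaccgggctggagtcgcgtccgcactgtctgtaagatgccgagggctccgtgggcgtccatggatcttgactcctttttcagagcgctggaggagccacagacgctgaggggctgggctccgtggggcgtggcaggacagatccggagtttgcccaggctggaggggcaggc
Itga11, chr9:62677605-62677854, plus strand: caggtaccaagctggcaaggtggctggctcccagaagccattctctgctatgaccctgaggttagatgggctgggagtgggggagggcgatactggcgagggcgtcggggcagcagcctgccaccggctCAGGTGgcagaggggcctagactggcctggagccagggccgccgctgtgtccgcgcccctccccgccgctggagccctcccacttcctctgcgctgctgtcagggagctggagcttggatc
Itga9, chr9:118711442-118711691, plus strand: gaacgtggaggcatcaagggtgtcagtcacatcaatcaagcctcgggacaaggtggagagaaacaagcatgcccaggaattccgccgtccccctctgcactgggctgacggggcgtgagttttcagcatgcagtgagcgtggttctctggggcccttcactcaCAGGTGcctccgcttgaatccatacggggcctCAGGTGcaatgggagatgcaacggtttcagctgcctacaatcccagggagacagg
Lamb2, chr9:108479612-108479861, plus strand: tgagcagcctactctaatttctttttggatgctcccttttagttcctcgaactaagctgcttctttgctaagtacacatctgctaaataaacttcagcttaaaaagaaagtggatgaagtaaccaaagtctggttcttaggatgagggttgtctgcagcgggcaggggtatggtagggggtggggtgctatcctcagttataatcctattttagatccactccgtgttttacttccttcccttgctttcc

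The 250 printed bases of Itga3 held 1 E-box, 195 to 190 bases upstream of the start, and 3 GGGCGG boxes, at 178 to 173, 144 to 139 and 35 to 30 bases upstream. A second window of Itga3, for another start, held no E-box and 1 GGGCGG box. Itga11 held 1 E-box, at 121 to 116 bases, and Itga9 held 2, at 87 to 82 and 55 to 50 bases, all read on the minus strand of the window. Neither motif, nor TGANTCA (the AP-1 site, where N is any base), was found in the printed windows of Lamb3, Itga2 or Lamb2, while a second window of Lamb3 in the table, for another start, held 1 E-box. The 3 motifs do not overlap each other in these windows. Over all 32851 promoter windows of the same length, 17.2% held CACCTG, 32.7% GGGCGG and 6.75% TGANTCA, and the 26 windows of the 23 members in the table held them in 8, 9 and 1 cases. The E-box is thus in the windows of genes of both directions, and the matches describe letters, not bound sites.

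Among laminins, a beta chain separated tumor cells from fibroblasts. Lamb3, the beta chain of the epithelial laminin, was 0.841, 0.410 and 0.597 FPKM in NPF, 19.6, 0.548, 0.454, 7.45 and 11.2 FPKM in WT_CAF, and 1.36, 0.356 and 30.0 FPKM in KO_CAF. In WT_tumor it was 90.9, 43.0, 69.5 and 52.1 FPKM, and in KO_tumor 47.7, 126 and 76.5 FPKM. Every tumor library was above every fibroblast library, although the fibroblasts spread widely, with KO_CAF 3 and WT_CAF 1 highest. The log2 difference, with its standard error after the ± sign as throughout, was 4.44 ± 0.79 (limma adjusted p = 0.00199) in Saa3-intact cells and 4.08 ± 0.80 (limma adjusted p = 0.00265) in knockout cells. As a share of the summed FPKM of the 3 beta chains, Lamb3 made up 31.0 to 64.1% in tumor libraries and 0.118 to 16.2% in fibroblast libraries. Within the Saa3-intact libraries the difference was 5.24 with the 6-base and 3.18 with the 16-base index. Within the knockout libraries it was 5.10 with the 6-base and 2.03 with the 16-base index, where KO_CAF 3 is the only fibroblast library. The summed epithelial markers were 617 FPKM in WT_CAF 1 and, among the KO_CAF libraries, highest at 209 FPKM in KO_CAF 1, where Lamb3 was 1.36 FPKM; their part in the fibroblast levels was not tested.

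Lamb1 and Lamb2, the beta chains of the stromal and vascular laminins, were the main ones in fibroblasts. Lamb1 had 37.9, 128 and 257 FPKM in NPF, 90.3, 162, 148, 82.1 and 57.8 FPKM in WT_CAF and 100, 149 and 97.6 FPKM in KO_CAF, against 53.4, 57.5, 37.8 and 103 FPKM in WT_tumor and 78.4, 60.2 and 42.3 FPKM in KO_tumor. It was above Lamb3 in WT_tumor 2, WT_tumor 4 and KO_tumor 1. The Saa3-intact groups overlapped, with a difference of -0.75 ± 0.56 that was not called, and the knockout groups did not overlap. Lamb2 had 16.4, 44.4 and 67.6 FPKM in NPF, 11.2, 102, 48.2, 107 and 50.6 FPKM in WT_CAF, and 37.5, 153 and 79.9 FPKM in KO_CAF. In tumor cells Lamb2 was at 4.78, 20.7, 28.7 and 13.2 FPKM (WT_tumor) and 16.1, 10.2 and 28.6 FPKM (KO_tumor), below all of its fibroblast libraries other than WT_CAF 1 and NPF 1. Lamb2 fell by 2.35 ± 0.78 in WT_tumor against WT_CAF (limma adjusted p = 0.0462), a call lost without any 1 of WT_CAF 3, 4 and 5 and of WT_tumor 1, 2 and 4. It was also lost with no index term (-1.75, limma adjusted p = 0.0677), with a pseudocount of 5, with no minimum level, with quantile normalization and in the fit of the 2 groups alone. The knockout difference was -2.14 ± 0.79 (limma adjusted p = 0.0577).

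Lamc1, the gamma chain of most laminins, had levels of 25.5, 98.6 and 236 FPKM in NPF, 32.6, 176, 69.0, 85.7 and 61.3 FPKM in WT_CAF, and 68.4, 242 and 103 FPKM in KO_CAF. Tumor libraries had 14.5, 32.6, 27.5 and 45.5 FPKM in WT_tumor and 30.0, 14.7 and 31.2 FPKM in KO_tumor. All KO_tumor libraries were below all KO_CAF libraries, while WT_tumor overlapped WT_CAF through WT_CAF 1. Lamc1 fell by 2.27 ± 0.73 on the log2 scale in knockout tumor cells against knockout fibroblasts (limma adjusted p = 0.0325), and in Saa3-intact cells the difference was -1.59 ± 0.72 and was not called (limma adjusted p = 0.127). The knockout call was lost without KO_CAF 2, without KO_CAF 3, without any 1 of the 3 KO_tumor libraries and with no minimum level. Lamc3, another gamma chain, was uneven among fibroblasts, from 0.0797 FPKM in WT_CAF 1 to 20.1 FPKM in NPF 3, and reached at most 0.261 FPKM in tumor cells, where it is listed at 0 in WT_tumor 4.

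The laminin alpha chains divided by cell type more finely. Lama3, the alpha chain of the epithelial laminin, was listed between 0.00947 and 0.143 FPKM in NPF, at 1.20, 0.165, 0.190, 0.124 and 0.303 FPKM in WT_CAF, and at 0.786, 0.0465 and 0.218 FPKM in KO_CAF. WT_tumor had 10.5, 11.6, 35.9 and 0.415 FPKM and KO_tumor had 24.2, 34.6 and 33.8 FPKM. WT_tumor 4, the library with little Epcam, was the only tumor library at fibroblast level. Lama3 was higher in tumor cells by 3.02 ± 0.77 (limma adjusted p = 0.014) in Saa3-intact cells and by 4.58 ± 0.79 (limma adjusted p = 0.00121) in knockout cells. The first of these calls was lost without WT_CAF 3 and without WT_tumor 1.

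Lama5, an alpha chain of epithelial and vascular basement membranes, had 1.41, 0.803 and 0.715 FPKM in NPF, 38.7, 2.65, 3.68, 0.322 and 2.99 FPKM in WT_CAF, and 14.0, 1.18 and 0.700 FPKM in KO_CAF. In WT_tumor it had 5.77, 54.0, 71.1 and 64.3 FPKM and in KO_tumor 58.3, 9.50 and 84.0 FPKM. The 2 low tumor libraries, WT_tumor 1 and KO_tumor 2, are the 2 tumor libraries with a 16-base index. The differences were 2.72 ± 0.80 (limma adjusted p = 0.0275) and 3.30 ± 0.81 (limma adjusted p = 0.00916). The Saa3-intact call was lost without WT_CAF 3, without WT_CAF 4 and without WT_tumor 3, and the knockout call without KO_CAF 2. With no index term the knockout difference was of the same size and was not called (3.30 ± 1.16, limma adjusted p = 0.0521), and with no minimum level the Saa3-intact one was not (limma adjusted p = 0.0501).

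Lama5 and Lama3 together made up nearly all laminin alpha FPKM of tumor cells, but in unequal parts. Lama3 was 0.629% of the alpha class in WT_tumor 4, where Lama5 was 97.5%, and 77.8% in KO_tumor 2. The library labelled WT_CAF 1 had 90.9% Lama5, unlike the other 4 WT_CAF libraries.

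**Figure D3:**
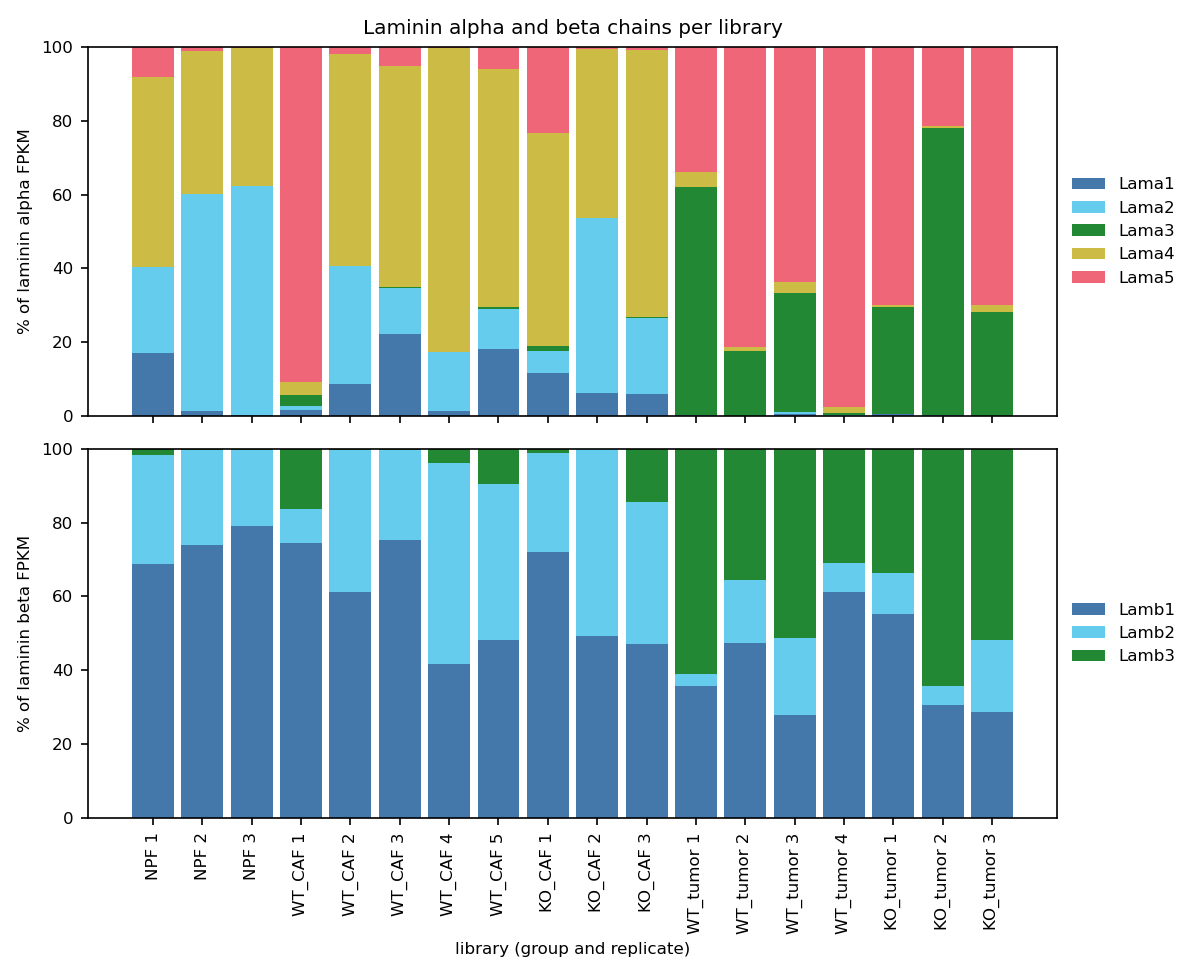
Share of each chain in the summed FPKM of the laminin alpha and beta classes (vertical axis, percent), 1 stacked bar per library. Lamb3 fills 31.0 to 64.1% of the beta bars in tumor libraries and at most 16.2% in fibroblast libraries, and Lama5 fills 90.9% of the alpha bar of WT_CAF 1.

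Fibroblasts used other alpha chains. Lama4, an alpha chain of vessel walls and mesenchyme, had 8.86, 32.2 and 81.7 FPKM in NPF, 1.46, 75.3, 43.0, 70.3 and 33.1 FPKM in WT_CAF, and 34.6, 86.9 and 64.3 FPKM in KO_CAF. In tumor cells it had 0.703, 0.819, 3.27 and 1.12 FPKM (WT_tumor) and 0.386, 0.209 and 2.06 FPKM (KO_tumor). Apart from WT_CAF 1, every fibroblast library was above every tumor library. Lama4 fell by 4.47 ± 0.98 (limma adjusted p = 0.00623) and by 5.09 ± 0.997 (limma adjusted p = 0.00255) in tumor cells.

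Lama2, the alpha chain known from muscle and nerve basement membranes, had 4.01, 48.6 and 135 FPKM in NPF, 0.485, 42.1, 8.84, 13.4 and 5.45 FPKM in WT_CAF, and 3.67, 89.8 and 18.3 FPKM in KO_CAF. In tumor cells it ran from 0.0058 to 0.401 FPKM in WT_tumor and was at 0.0797, 0.0383 and a listed 0 in KO_tumor. The fibroblast libraries did not overlap the tumor libraries in any group, but differed among themselves by more than 10-fold within each fibroblast group. The difference was -4.28 ± 1.28 in knockout cells and was called (limma adjusted p = 0.0233), and -3.17 ± 1.26 in Saa3-intact cells and was not (limma adjusted p = 0.0864). The knockout call was lost without any 1 of KO_CAF 2, KO_CAF 3 and the 3 KO_tumor libraries and with a pseudocount of 5 (-2.41), and the Saa3-intact difference was called without WT_CAF 1, without WT_CAF 2, with no index term and with a pseudocount of 0.1.

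Lama1, best known as the alpha chain of the early embryo, had 2.94, 1.12 and 0.801 FPKM in NPF, 0.705, 11.3, 16, 1.24 and 9.36 FPKM in WT_CAF, and 6.91, 11.7 and 5.15 FPKM in KO_CAF, against at most 0.727 FPKM in any tumor library. Its highest tumor value was in WT_tumor 3, the tumor library with the most fibroblast marker RNA. Lama1 fell by 2.92 ± 0.66 (limma adjusted p = 0.00751) and by 2.85 ± 0.67 (limma adjusted p = 0.00734), and the first call was lost without WT_CAF 3.

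Among the integrins that were higher in tumor cells, 3 are alpha chains of collagen or laminin receptors. Itga3, the alpha chain of a laminin receptor with Itgb1, had 7.60, 3.17 and 3.12 FPKM in NPF, 127, 2.68, 8.61, 1.23 and 8.98 FPKM in WT_CAF, and 16.2, 1.01 and 3.60 FPKM in KO_CAF. In WT_tumor it had 56.7, 108, 176 and 143 FPKM and in KO_tumor 177, 129 and 188 FPKM. Only the library labelled WT_CAF 1 reached tumor levels. The differences were 3.90 ± 1.01 (limma adjusted p = 0.0144) and 4.91 ± 1.02 (limma adjusted p = 0.0037), and the Saa3-intact one missed the threshold without WT_CAF 3 and without WT_CAF 4. Itga3 was the most abundant alpha chain by mean FPKM in both tumor groups.

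Itga6, the alpha chain that joins Itgb4 in hemidesmosomes, had 2.09, 4.01 and 3.18 FPKM in NPF, 37.2, 1.16, 1.78, 0.957 and 5.70 FPKM in WT_CAF, and 6.33, 0.636 and 1.44 FPKM in KO_CAF, against 28.9, 50.01, 38.4 and 61.0 FPKM in WT_tumor and 42.1, 41.3 and 67.4 FPKM in KO_tumor. Itgb4, its partner, had at most 0.566 FPKM in NPF, 6.76, 0.508, 3.77, 0.595 and 1.93 FPKM in WT_CAF and 2.73, 0.236 and 0.597 FPKM in KO_CAF. Tumor cells had 23.5, 45.2, 64.0 and 47.1 FPKM (WT_tumor) and 33.9, 55.0 and 61.8 FPKM (KO_tumor) of Itgb4. Its tumor and fibroblast libraries did not overlap, while WT_CAF 1 brought the groups of Itga6 into overlap. Itga6 was higher in tumor cells by 3.60 ± 0.81 (limma adjusted p = 0.00701) and 4.02 ± 0.82 (limma adjusted p = 0.00325), and Itgb4 by 3.69 ± 0.54 (limma adjusted p = 7.67e-04) and 4.68 ± 0.55 (limma adjusted p = 1.46e-04). The Saa3-intact call of Itga6 was lost without WT_CAF 3.

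Itga2, the alpha chain of an epithelial and platelet collagen receptor, had 1.19, 2.76 and 2.63 FPKM in NPF, 7.53, 1.67, 0.929, 1.18 and 2.93 FPKM in WT_CAF and 2.51, 2.09 and 1.75 FPKM in KO_CAF. WT_tumor had 11, 39.2, 33.6 and 27.5 FPKM and KO_tumor 23.4, 35.7 and 55.8 FPKM, above all fibroblast libraries. The differences were 3.23 ± 0.49 (limma adjusted p = 8.7e-04) and 3.58 ± 0.50 (limma adjusted p = 3.83e-04). Itgb6, the beta chain of the epithelial receptor that activates latent TGF-beta, is listed from 0 to 0.317 FPKM in the fibroblast libraries. It had 1.94, 2.91, 5.55 and 0.256 FPKM in WT_tumor and 3.05, 6.52 and 5.54 FPKM in KO_tumor, so WT_tumor 4 again lay within the fibroblast range. It was higher by 1.57 ± 0.43 (limma adjusted p = 0.0191) and 2.53 ± 0.44 (limma adjusted p = 0.00121), and the first call was lost without WT_CAF 3 and without WT_CAF 4.

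**Figure D4:**
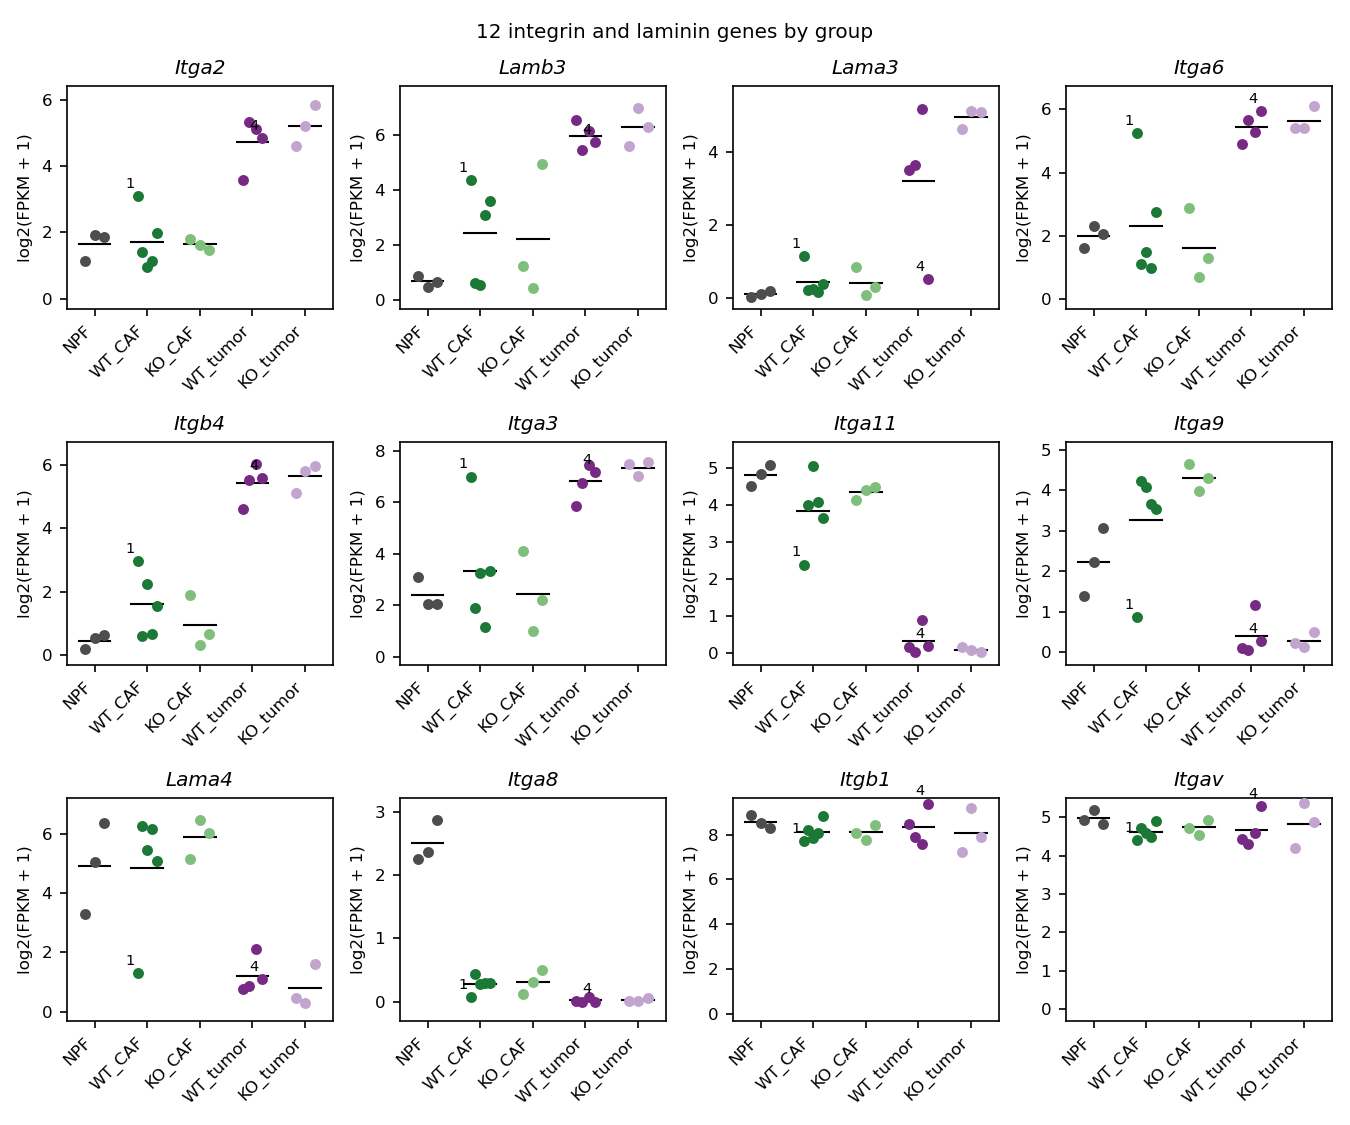
Levels of 12 integrin and laminin genes (1 panel each) as log2(FPKM + 1), by group, with 1 point per library and a line at each group mean; the numbers 1 and 4 mark WT_CAF 1 and WT_tumor 4. Itga2, Lamb3 and Itgb4 are higher in every tumor library than in every fibroblast library, Itga11 is lower in every tumor library, Itga8 is highest in the 3 NPF libraries, and Itgb1 lies between 147 and 661 FPKM throughout.

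The integrins that were lower in tumor cells include a second collagen receptor chain. Itga11, a receptor chain for fibrillar collagen on fibroblasts, had 21.5, 27.3 and 32.9 FPKM in NPF, 4.24, 14.9, 31.8, 15.7 and 11.6 FPKM in WT_CAF, and 16.6, 20.1 and 21.2 FPKM in KO_CAF. In tumor cells it had 0.120, 0.0240, 0.857 and 0.143 FPKM (WT_tumor) and 0.126, 0.0677 and 0.0324 FPKM (KO_tumor). No tumor library came near a fibroblast library, and WT_CAF 1 was the lowest fibroblast library. Itga11 fell by 4.05 ± 0.39 (limma adjusted p = 1.07e-04) and by 4.23 ± 0.39 (limma adjusted p = 6.24e-05). Together with Itga2 this gives 2 collagen receptor chains with opposite directions in the same libraries.

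Itga9, the alpha chain of a tenascin receptor, had 1.63, 3.67 and 7.36 FPKM in NPF, 0.836, 17.7, 15.9, 11.6 and 10.6 FPKM in WT_CAF, and 24.0, 14.8 and 18.7 FPKM in KO_CAF. In WT_tumor it had 0.0802, 0.0401, 1.25 and 0.212 FPKM and in KO_tumor 0.168, 0.105 and 0.417 FPKM. WT_tumor 3 was above WT_CAF 1, and the other libraries did not overlap. It fell by 3.47 ± 0.63 (limma adjusted p = 0.00214) and by 4.02 ± 0.64 (limma adjusted p = 8.26e-04). Itga1, a collagen receptor chain, had 1.43, 2.11 and 2.74 FPKM in NPF, 0.355, 8.17, 6.03, 4.70 and 8.44 FPKM in WT_CAF, and 5.22, 16.3 and 10.6 FPKM in KO_CAF, against 0.800, 2.09, 2.49 and 2.17 FPKM in WT_tumor and 0.792, 1.74 and 3.28 FPKM in KO_tumor. Its knockout groups did not overlap, and in the Saa3-intact groups WT_CAF 1 was below all tumor libraries. It fell by 1.96 ± 0.58 in knockout cells (limma adjusted p = 0.0228), a call lost without any 1 of KO_CAF 2, KO_CAF 3, KO_tumor 1 and KO_tumor 2. In Saa3-intact cells the difference was -1.44 (limma adjusted p = 0.0867), and it was called without WT_CAF 1 and without WT_CAF 2.

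Itga5, the alpha chain of the main fibronectin receptor, was the most abundant alpha chain by mean FPKM in all 3 fibroblast groups. It had 14.6, 62.9 and 74.1 FPKM in NPF, 23.7, 136, 182, 45.8 and 164 FPKM in WT_CAF, and 244, 151 and 82.4 FPKM in KO_CAF, against 25.3, 21.7, 14.7 and 43.2 FPKM in WT_tumor and 24.6, 54.5 and 21.5 FPKM in KO_tumor. Among WT_CAF libraries only WT_CAF 1 fell into the WT_tumor range. Itga5 fell by 2.24 ± 0.75 (limma adjusted p = 0.0469) and by 2.2 ± 0.76 (limma adjusted p = 0.0442). Both adjusted p lie close to the threshold, and the Saa3-intact call was lost without any 1 of WT_CAF 3, WT_CAF 5 and WT_tumor 1, 2 and 3, the knockout call without any 1 of the 3 KO_CAF libraries, KO_tumor 1 and KO_tumor 3. The Saa3-intact call was also lost with no index term (-1.77, limma adjusted p = 0.0524), with a pseudocount of 5, with no minimum level, with quantile normalization and in the fit of the 2 groups alone, and the knockout call with no minimum level (limma adjusted p = 0.0732).

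Itgb5, a beta chain that joins Itgav in a vitronectin receptor, had 86.4, 139 and 126 FPKM in NPF, 279, 89.3, 133, 129 and 91.4 FPKM in WT_CAF, and 87.3, 120 and 186 FPKM in KO_CAF. In tumor cells it had 53.0, 19.2, 41.8 and 24.9 FPKM (WT_tumor) and 52.6, 44.1 and 27.0 FPKM (KO_tumor), below every fibroblast library. For this gene WT_CAF 1 was the highest library of all. It fell by 1.64 ± 0.43 (limma adjusted p = 0.0161) and by 1.63 ± 0.44 (limma adjusted p = 0.0144), and the first call was lost without WT_CAF 3 and with quantile normalization (limma adjusted p = 0.0523), the second without KO_CAF 2, KO_CAF 3, KO_tumor 2 or KO_tumor 3. Itgb8, another beta chain that joins Itgav, had 0.0229, 0.230 and 0.504 FPKM in NPF, 1.28, 4.35, 0.899, 1.12 and 3.54 FPKM in WT_CAF, and 4.72, 2.90 and 2.23 FPKM in KO_CAF, against at most 0.899 FPKM in any tumor library. It fell by 1.65 ± 0.39 in knockout cells (limma adjusted p = 0.00731) and differed by -1.08 in Saa3-intact cells (limma adjusted p = 0.0598), where it was called without WT_CAF 1, without WT_CAF 2, without WT_tumor 3, with no index term and with a pseudocount of 0.1.

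The shared partner chains did not follow this split. Itgb1, which pairs with most of the alpha chains above, was the most abundant member of the beta class in every group, with 462, 366 and 313 FPKM in NPF, 208, 291, 231, 266 and 459 FPKM in WT_CAF, and 268, 218 and 345 FPKM in KO_CAF. It had 355, 236, 189 and 661 FPKM in WT_tumor and 147, 574 and 234 FPKM in KO_tumor. The difference was 0.37 ± 0.44 in Saa3-intact cells (95% interval -0.58 to 1.32) and -0.01 ± 0.45 in knockout cells (95% interval -0.97 to 0.95). Itgav, the alpha chain shared by the vitronectin and TGF-beta-activating receptors, lay between 17.4 and 40.1 FPKM in all 18 libraries, with differences of 0.09 ± 0.29 (95% interval -0.53 to 0.71) and 0.08 ± 0.29. At this number of libraries these intervals allow differences of about the size of 1 on the log2 scale for Itgb1 and less for Itgav.

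Other genes of adhesion sites and basement membranes, taken from 4 lists, were read against the same background of 21.5% and 28.4% called. Of 19 tested genes of the adhesion complex, 1 was higher and 6 were lower in WT_tumor against WT_CAF, and 2 were higher and 5 lower in KO_tumor against KO_CAF, with medians of -0.13 and -0.28 against 0.07 and 0.05 over all genes. Fermt1, the kindlin of epithelia, which binds integrin beta tails, was higher by 3.34 ± 0.28 (limma adjusted p = 5.09e-05) and 4.41 ± 0.28 (limma adjusted p = 4.46e-06), with at most 0.392 FPKM in fibroblasts and 7.75 to 37.0 FPKM in tumor cells. Fermt1 passed the minimum level only through tumor cells, so it could hardly come out as lower. Fermt2, the kindlin of mesenchyme, fell by 2.02 ± 0.53 (limma adjusted p = 0.0155) and by 2.25 ± 0.54 (limma adjusted p = 0.00778), and is named after its values were seen. The adaptor Parva and the tensin Tns1 were lower in both comparisons. Talin (Tln1), vinculin (Vcl) and focal adhesion kinase (Ptk2), which link integrins to actin and signalling, were called in neither.

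Of 14 tested basement membrane genes, 2 were higher and 8 lower in Saa3-intact cells and 4 higher and 8 lower in knockout cells, with medians of -1.92 and -2.03. Nidogens, which bridge laminin to collagen IV, were lower in tumor cells: Nid1 differed by -2.91 and -4.85, and Nid2 by -4.07 and -3.66. Col4a1, a main chain of collagen IV, differed by -3.70 and -3.91. Col18a1 and Npnt, a ligand of the Itga8 receptor, were higher in both comparisons. Of 6 tested hemidesmosome and laminin receptor genes, Sdc1 was higher and Dag1, the dystroglycan laminin receptor, was lower in both, and the other 4 were not called. Plec, the hemidesmosome plakin, differed by 1.23 ± 0.47 (limma adjusted p = 0.0747) and 1.08 ± 0.47 (limma adjusted p = 0.101), and Col17a1, the hemidesmosome collagen, reached at most 0.335 FPKM in any library. Of 14 tested other integrin ligands, 1 was higher and 4 lower, and then 2 higher and 5 lower. Cdh1, a ligand of the integrin made with Itgae, was the one higher in both, while Itgae itself was too low to test. Without WT_CAF 3 the lower counts in Saa3-intact cells were 2 (adhesion complex), 3 (basement membrane), 0 (hemidesmosome) and 1 (other ligands), and without WT_tumor 1 the basement membrane counts were 0 higher and 2 lower. Of the genes named here, Fermt2, Nid1, Col4a1, Npnt, Sdc1 and Dag1 lost their Saa3-intact call without WT_CAF 3 and without WT_tumor 1. Sdc1 lost it with no index term too (1.03 ± 0.44, limma adjusted p = 0.113). Npnt, Sdc1 and Dag1 lost their knockout call without any 1 of KO_CAF 2, KO_CAF 3 and KO_tumor 2, while Fermt1, Parva and Tns1 were called under every alternative run.

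Tumor fibroblasts were next set against normal pancreatic fibroblasts, WT_CAF against NPF. The size of this difference rests on the libraries without an index, which are NPF 1 to 3 and WT_CAF 1 and 2, and WT_CAF 1 is the library with low fibroblast and high epithelial markers. With the index term and without WT_CAF 1, the size rests on WT_CAF 2 alone among the tumor fibroblasts. No member was higher and 1 was lower, Itga8, against 0.950% of all genes tested (0.277% higher and 0.673% lower). Itga8, the alpha chain of a nephronectin receptor found on smooth muscle and some fibroblasts, had 3.77, 4.15 and 6.31 FPKM in NPF, 0.0477, 0.356, 0.213, 0.225 and 0.221 FPKM in WT_CAF, and 0.0814, 0.237 and 0.409 FPKM in KO_CAF, with at most 0.0561 FPKM in tumor cells. All 3 NPF libraries were above the other 15 libraries. It fell by 2.24 ± 0.23 on the log2 scale (limma adjusted p = 2.3e-04), and by 2.06 without WT_CAF 1 (limma adjusted p = 0.00323). Itga8 passed the minimum level only through the 3 NPF libraries, so it could come out only as lower and leaving out any 1 of them leaves it untested. With no minimum level, an alternative chosen after seeing the data, it was called without each NPF library in turn (-2.36, -2.31 and -2.06). In a fit of the 2 groups alone the difference was the same and was not called (limma adjusted p = 0.131). Acinar marker RNA also differed between these groups, with a sum over 8 markers of 797 to 29657 FPKM in NPF and 21.1 to 366 FPKM in WT_CAF, and its part in the difference was not tested.

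The median difference of the members was 0.39 in this comparison, against -0.01 over all genes, and 2 of 30 members did not overlap between the groups, against 11.2% of all genes tested. The 2 were Itga8 and Itgb8. Itgb8 was above all NPF libraries in all 5 WT_CAF libraries, with a difference of 1.5 ± 0.44 that was not called (limma adjusted p = 0.119). Itga11 differed by -1.61 ± 0.44 (limma adjusted p = 0.101) and Lama5 by 2.62 ± 0.91 (limma adjusted p = 0.183). WT_CAF 1 decided several of these values, and without it WT_CAF 2 alone sets the size. Without WT_CAF 1, Itga11 differed by -0.80 (limma adjusted p = 0.451), Lama5 by 0.90, Itga3 by -0.52, Itga6 by -0.90 and Lamb3 by -0.05. Itga9 then differed by 2.0 ± 0.54 (limma adjusted p = 0.102) and Itgb8 by 2.11 ± 0.49 (limma adjusted p = 0.0558). Lamb3 in WT_CAF 2 to 5 was 0.548, 0.454, 7.45 and 11.2 FPKM, against at most 0.841 FPKM in NPF. With WT_CAF 1 left out and no index term, so that WT_CAF 2 to 5 all entered, Itga1 (1.33 ± 0.37, limma adjusted p = 0.0442), Itga9 (1.65 ± 0.36, limma adjusted p = 0.0126) and Itgb8 (1.35 ± 0.35, limma adjusted p = 0.0332) were called higher beside the lower Itga8. In that fit the index and the group cannot be told apart for WT_CAF 3 to 5. Resting on WT_CAF 1 alone (without WT_CAF 2), 9 members were called: Itga3, Itga6, Itgb4, Itgb7, Lama5 and Lamb3 higher, and Itga8, Itga11 and Lama4 lower.

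**Figure D5:**
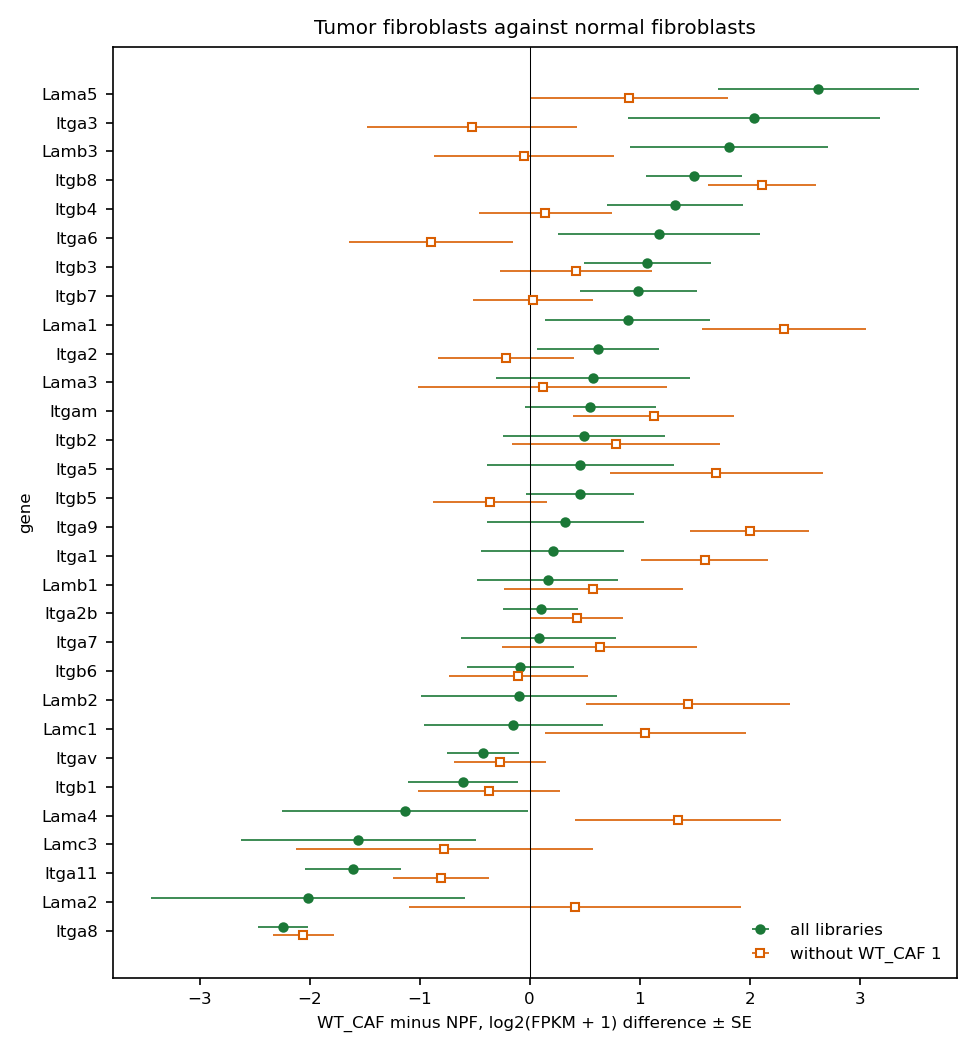
Log2 difference between WT_CAF and NPF for the tested members, in the fit of all libraries and in the fit without WT_CAF 1, with bars of 1 standard error. Itga8 lies at -2.24 and -2.06, while Lama5 moves from 2.62 to 0.90 and Itga9 reaches 2.0 without WT_CAF 1. In the fit without WT_CAF 1, WT_CAF 2 alone sets the size of the differences from NPF.

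Of the 19 adhesion complex, 14 basement membrane, 6 hemidesmosome and 14 other ligand genes tested, 1 was called in this comparison, against 0.950% of all genes tested. In the same order 4, 1, 1 and 0 did not overlap between the groups, against 11.2% of all genes tested. The called gene was Sdc1, a heparan sulfate proteoglycan that binds laminin. Sdc1 had 17.8, 17.4 and 11.03 FPKM in NPF and 315, 121, 79.2, 58.5 and 136 FPKM in WT_CAF, with WT_CAF 1 highest and no overlap between the groups. It was higher in WT_CAF by 3.61 ± 0.53 (limma adjusted p = 0.0041). Without WT_CAF 1, where WT_CAF 2 alone sets the size, the difference was 2.92 ± 0.61 (limma adjusted p = 0.0367). In the fit of the 2 groups alone it was not called (limma adjusted p = 0.179). WT_CAF 1 also had the most epithelial marker RNA of the fibroblast libraries, and Sdc1 was 181 to 348 FPKM in tumor cells; the part of such RNA in the level of WT_CAF 1 was not tested.

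Loss of Saa3 was not accompanied by a called change in any of these integrin and laminin genes. The deleted gene was not called either, since 0% of all genes tested were called lower in KO_CAF against WT_CAF. Saa3 was 892 to 4278 FPKM in WT_CAF 2 to 5 and at most 1.85 FPKM in KO_CAF. An absence of calls therefore does not show that the members were unchanged. In KO_CAF against WT_CAF, 0 of 30 members were called, against 0.00748% of all genes tested, and 0 had an unadjusted limma p under 0.05. The median difference was 0.16 against -0.01 over all genes, and the members ran from -0.96 (Itga7) to 1.03 (Lama2). No member had groups that did not overlap, against 1.20% of all genes. Among members with a mean of at least 5 FPKM in either group, the smallest p belonged to Itga1 (0.51 ± 0.60, 95% interval -0.77 to 1.80), Lama2 (1.03 ± 1.31, 95% interval -1.79 to 3.84) and Lamc1 (0.53 ± 0.75), each with a limma adjusted p of 1. Those intervals, with 3 knockout libraries and with WT_CAF 3 to 5 setting the size, hold 0 and also differences of more than 1 in log2.

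In KO_tumor against WT_tumor, 0 of 30 members were called, against 0% of all genes tested, and 2 had an unadjusted limma p under 0.05. The median was 0.14 against -0.02 over all genes, members ran from -0.40 (Lama4) to 1.74 (Lama3), and 0 did not overlap between the groups, against 3.61% of all genes. Those were Lama3, with a difference of 1.74 ± 0.74 (95% interval 0.16 to 3.32), and Itgb6, with 0.89 ± 0.41 (95% interval 0.02 to 1.77), both with a limma adjusted p of 1. In the values given above WT_tumor 3 lay within or above the knockout range for both genes. Without WT_tumor 4, the library with little Epcam, the differences were 0.85 for Lama3 and 0.47 for Itgb6. Without WT_tumor 3, the tumor library with the most fibroblast marker RNA, they were 2.41 (limma adjusted p = 0.354) and 1.26 (limma adjusted p = 0.423). Itgb3, the beta chain that joins Itgav in another vitronectin receptor, had 4.29, 2.34, 2.92 and 3.74 FPKM in WT_tumor and 5.81, 20.5 and 2.95 FPKM in KO_tumor, with KO_tumor 2 far above the rest. Its difference of 0.91 ± 0.48 (95% interval -0.13 to 1.95) was 0.35 without KO_tumor 2 and 1.37 without KO_tumor 3 (limma adjusted p = 0.914).

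Whether the knockout differed between fibroblasts and tumor cells was tested as an interaction, which is the same as asking whether the tumor-to-fibroblast difference depended on Saa3. No member was called, 0 had an unadjusted limma p under 0.05, and 0% of all genes tested were called. The median over members was 0.07. Among members with a mean of at least 5 FPKM in any group, the smallest p belonged to Itgb6 (0.96 ± 0.61), Lama3 (1.57 ± 1.10) and Itgb4 (0.99 ± 0.78). Lama2 (-1.11 ± 1.79) and Itga3 (1.01 ± 1.44) had differences of similar size, and each of these 5 had a limma adjusted p of 1.

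The integrins of blood cells were low throughout. Itgb2, the beta chain of leukocyte integrins, ran from 0.247 to 9.27 FPKM, and the 4 highest libraries were KO_tumor 1 (9.27 FPKM), KO_CAF 3 (4.61 FPKM), KO_CAF 1 (4.57 FPKM) and WT_CAF 4 (4.50 FPKM). The same 4 libraries had the highest Itgal, a partner of Itgb2, at 0.462, 0.793, 0.507 and 0.361 FPKM, and the highest Ptprc, the gene of the leukocyte marker CD45, at 0.867, 1.45, 1.18 and 1.29 FPKM. The summed level of 16 leukocyte markers was 8.48 to 176 FPKM over all libraries, and its part in these integrins was not tested. That sum did not follow Ptprc everywhere. It reached 96.4 FPKM in NPF, where Ptprc was at most 0.240 FPKM and Itgb2 at most 0.716 FPKM. Itgam, the alpha chain of myeloid cells, was highest in KO_CAF 1 at 4.08 FPKM, and Itgb7, a lymphocyte beta chain, in WT_CAF 1 at 3.92 FPKM. Itga2b, the platelet fibrinogen receptor chain, lay between 0.461 and 2.17 FPKM. None of Itgb2, Itgam, Itgb7 and Itga2b was called in any of the 6 comparisons. Itga7, a laminin receptor chain of muscle, reached 8.10 FPKM in WT_CAF 3, 10.9 FPKM in WT_CAF 5 and 11.3 FPKM in KO_CAF 1 and was at most 3.51 FPKM elsewhere. Those 3 libraries had the highest summed levels of 6 pericyte and smooth muscle markers among the fibroblasts, 183, 105 and 156 FPKM, and the part of such cells was not tested.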

How the data were processed

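Gene expression was measured by poly(A) RNA sequencing (an Illumina TruSeq kit and a HiSeq2000, per the labels' protocols). FPKM values, 1 per gene and library, are the unit the authors deposited. The submitters' processing notes list Cufflinks 2.2.1, Cuffnorm, TopHat2 2.0.10, SAMtools 0.1.19 and Bowtie 1.0.0, with mm9 as the only mouse build; settings and annotation were not given in the sources used here. Cufflinks FPKM is a model estimate, a listed 0 can be a failed estimate, and the depth in fragments is unknown. FPKM sums ran from 396646 to 919859 per library, and 10657 to 11670 genes reached 1 FPKM.

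Members were matched by symbol. log2(FPKM + 1) of genes at 1 FPKM or more in 3 or more libraries was fitted with limma 3.58.1 (R 4.3.3, trended variances) on group and index length, all 18 libraries, with Benjamini-Hochberg adjustment over 13369 genes; the procedure was tested on simulated data. The series design calls the libraries of a group biological replicates. Named were members called in any comparison, the most abundant integrin alpha and beta and laminin alpha and beta chains, and in comparisons without a call the 3 with the smallest p at 5 FPKM or more; of other lists, up to 4 called genes with the smallest p, and genes described as not called. Members, lists and tests were chosen with earlier results of these data known. Alternatives were other pseudocounts (0.1 and 5), no minimum, no index term, median-ratio scaling, quantile normalization, the compared groups alone, and libraries left out. Promoter windows came from RefSeq (GRCm38.p6), with 23 of 36 members matched. Some items are not reported here.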

Additional observations from a re-analysis of the deposited data

Results flagged for a closer look

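Of 46 gene and group combinations with 4 or 5 libraries, 10 held 1 library far from the others by Dixon's test, which chance gives in about 1 in 20 groups. The library labelled WT_CAF 1 was the distant one in 5 of them: Itga1 at 0.355 FPKM (others 4.70 to 8.44), Itga9 at 0.836 FPKM (others 10.6 to 17.7), Lama4 at 1.46 FPKM (others 33.1 to 75.3), Lama3 at 1.20 FPKM (others 0.124 to 0.303) and Itgb3 at 7.91 FPKM (others 1.78 to 2.63). WT_tumor 3 was the high library for Itga8 at 0.0561 FPKM (others at most 0.00833), Lama1 at 0.727 FPKM (others 0.0121 to 0.0725) and Lama2 at 0.401 FPKM (others 0.0058 to 0.0509). WT_CAF 5 was the high library for Itgb6 at 0.317 FPKM (others at most 0.0526), and WT_tumor 1 the low one for Lama5 at 5.77 FPKM (others 54.0 to 71.1).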

How the results depend on the processing

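No paired analysis was possible because the labels give no replicate numbers. No member called in the main fit changed direction. In WT_CAF against NPF, Itga3, Itga6, Lamb3 and Lama4, called only without WT_CAF 2, had the other sign without WT_CAF 1 (-0.52, -0.90, -0.05 and 1.35). Counts of called members changed as follows. In WT_CAF against NPF, 0 were higher, 3 with WT_CAF 1 left out and no index term, and 0 to 6 leaving out 1 library (6 without WT_CAF 2); 1 was lower, 0 in the fit of the compared groups alone, and 0 to 3 leaving out 1 library. In WT_tumor against WT_CAF, 8 were higher, 3 in the fit of the compared groups alone, and 3 to 8 leaving out 1 library; 7 were lower, 4 with quantile normalization, 2 in the fit of the compared groups alone, 11 with WT_CAF 1 left out and no index term, and 3 to 10 leaving out 1 library (3 without WT_CAF 3). In KO_tumor against KO_CAF, 10 were lower and 5 to 10 leaving out 1 library (5 without KO_CAF 2 or KO_CAF 3). The fit of the groups alone has fewer libraries; the cause of the other changes was not tested. The knockout comparisons and the interaction had 0 calls among members under every alternative run. Setting failed zeros to missing was not run, since 0 member values met that rule. The number of libraries and the unknown depth limit what small differences can be seen.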
